A study of Homo sapiens with 31 samples.

Results

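The genes described here are 10 rows of a normalized expression table of 74834 rows, taken because their symbol is IL1A, IL1B, CXCL8, CXCL1, CXCL2, LIF, NFKBIA, TNFAIP3, RELB or NFKB2. They encode interleukin-1 cytokines, chemokines that attract neutrophils, the cytokine LIF, and inhibitors and subunits of the transcription factor NF-kB. Poly(A) RNA of H460, a line of human large cell lung carcinoma that carries wild-type p53, was sequenced 6 h after treatment in 31 libraries. B87 cells received the mitochondrial complex I inhibitor BAY87-2243 at 1 µM (n = 4). DMKG cells received dimethyl α-ketoglutarate, a cell-permeable ester of a tricarboxylic acid cycle intermediate, at 5 mM (n = 4). B87+DMKG cells received both (n = 4). Nutlin-3 cells received 30 µM of this blocker of the p53-binding pocket of MDM2 (n = 3), and Rita cells received 50 µM of Rita, a small molecule described as binding p53 (n = 4). In B87+DMKG+Nutlin-3 cells the combination was given with Nutlin-3 (n = 4), and in B87+DMKG+Rita cells with Rita (n = 4), at these doses. Control cells were untreated (n = 4). Per the labels, each library joined 2 wells of this 1 line, and no label gives separate culture dates, so p-values measure the spread between these libraries, which may be partly technical. The series set these treatments side by side to see their effect on transcription in the setting of cell death, and asked how inhibitors of MDM2 bear on the response to DMKG plus B87.

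NF-kB is a family of paired DNA-binding proteins that stay in the cytoplasm while an inhibitor such as the product of NFKBIA holds them. Receptors for interleukin-1, tumour necrosis factor and other signals activate a kinase that marks the inhibitor for destruction, and the freed factor turns on genes for cytokines, chemokines and its own inhibitors, which then end the response. A slower branch runs through NFKB2 and RELB. In epithelial tumour cells this system is known for the release of CXCL8 and related chemokines, and many of the messages involved are short-lived because AU-rich stretches in their ends are read by decay proteins.

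To show where the letters of the NF-kB binding motif lie before these genes, 6 promoters are printed: CXCL8, CXCL1, CXCL2, NFKBIA and TNFAIP3, which hold a kappaB match, and IL1B, which holds none. Each is the 250 bases before the annotated start of transcription, 5′ to 3′ on the strand of the gene, from RefSeq on GRCh38.p14, and capitals mark kappaB matches. The regions are chr4:73740319-73740568 on the plus strand for CXCL8, chr4:73869143-73869392 on the plus strand for CXCL1, chr4:74099196-74099445 on the minus strand for CXCL2, chr14:35404750-35404999 on the minus strand for NFKBIA, chr6:137867009-137867258 on the plus strand for TNFAIP3 and chr2:112836780-112837029 on the minus strand for IL1B.
CXCL8: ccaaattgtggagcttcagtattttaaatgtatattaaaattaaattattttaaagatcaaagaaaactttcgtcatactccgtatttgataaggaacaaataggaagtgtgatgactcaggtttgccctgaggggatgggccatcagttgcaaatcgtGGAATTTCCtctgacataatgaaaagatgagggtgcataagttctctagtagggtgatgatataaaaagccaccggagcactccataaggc
CXCL1: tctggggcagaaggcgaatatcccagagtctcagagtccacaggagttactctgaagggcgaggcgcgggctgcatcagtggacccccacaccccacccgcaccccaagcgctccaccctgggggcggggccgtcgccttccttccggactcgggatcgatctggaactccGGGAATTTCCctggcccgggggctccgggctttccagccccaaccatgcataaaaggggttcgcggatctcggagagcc
CXCL2: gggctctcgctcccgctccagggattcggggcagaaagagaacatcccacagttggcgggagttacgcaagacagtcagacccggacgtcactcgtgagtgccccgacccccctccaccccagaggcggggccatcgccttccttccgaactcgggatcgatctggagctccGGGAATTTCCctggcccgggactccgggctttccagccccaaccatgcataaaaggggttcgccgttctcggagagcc
NFKBIA: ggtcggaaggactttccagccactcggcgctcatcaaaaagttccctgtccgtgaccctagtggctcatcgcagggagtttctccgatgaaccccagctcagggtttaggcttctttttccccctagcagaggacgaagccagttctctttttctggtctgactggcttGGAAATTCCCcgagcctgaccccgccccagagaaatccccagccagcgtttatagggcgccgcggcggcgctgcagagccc
TNFAIP3: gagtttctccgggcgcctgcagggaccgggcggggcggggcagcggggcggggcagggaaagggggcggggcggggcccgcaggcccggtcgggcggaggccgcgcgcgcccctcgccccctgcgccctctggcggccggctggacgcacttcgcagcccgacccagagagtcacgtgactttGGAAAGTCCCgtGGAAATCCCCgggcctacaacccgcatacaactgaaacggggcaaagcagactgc
IL1B: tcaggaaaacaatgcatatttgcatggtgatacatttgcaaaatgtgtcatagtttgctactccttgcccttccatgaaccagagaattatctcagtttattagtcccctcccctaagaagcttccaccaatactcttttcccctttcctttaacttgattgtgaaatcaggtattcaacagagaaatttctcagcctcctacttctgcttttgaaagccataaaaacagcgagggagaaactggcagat

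A promoter entry was found for 8 of the 10 genes, all but LIF and RELB. The search used 2 forms of the kappaB motif on both strands, form 1 being GGG, any 2 bases and TTTCC, and form 2 being GGAANTTCC, and the forms overlap each other where a run satisfies both, as in CXCL1, CXCL2 and NFKBIA. Form 1 occurs in 1.73% and form 2 in 0.826% of 35116 promoters of the same length. A match lies between bases -91 and -83 from the start in CXCL8, between -79 and -70 in CXCL1, between -78 and -69 in CXCL2 and between -81 and -72 in NFKBIA. TNFAIP3 holds 2 matches, at -67 to -58 and -55 to -46. NFKB2 has 3 annotated starts, of which the second has a match at -78 to -69 and the third at -21 to -12. No kappaB form of these letters lies in the window of IL1B or in either window of IL1A, which says nothing about the factor at those genes. The AP-1 letters TGANTCA, present in 6.57% of promoters, occur in CXCL8 at -137 to -131 and in IL1A, whose 2 annotated starts have overlapping windows. A match is a description of letters and not of binding.

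**Figure D1:**
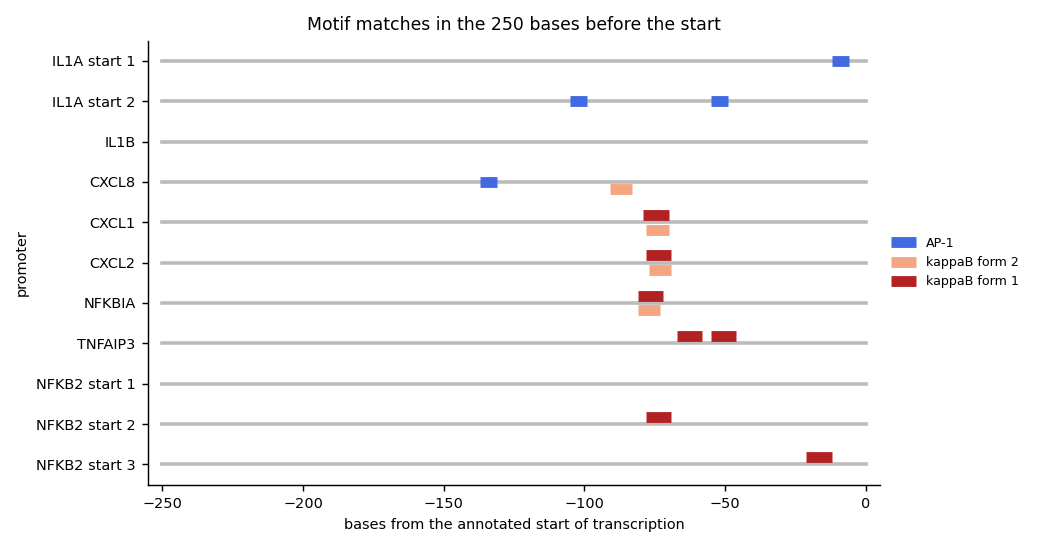
Motif matches in the 250 bases before each annotated start of transcription of 8 genes, with distance from the start in bases on the x axis and 1 line per start. kappaB form 1 is GGG, any 2 bases and TTTCC, kappaB form 2 is GGAANTTCC and AP-1 is TGANTCA; the kappaB matches of CXCL8, CXCL1, CXCL2 and NFKBIA lie between -91 and -69, and the lines of IL1B and of the first start of NFKB2 are bare.

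Values are normalized read counts, which the authors scaled per library before deposit, so a change is relative to the other messages of a library. It is not exactly a change in the share of messenger RNA, since the scaled totals differed. They were, for example, 5.41e+07 in Control replicate 4 and 6.76e+07 in B87+DMKG+Rita replicate 4. In such bulk RNA, fewer cells of one state and less RNA per cell cannot be told apart. Libraries held 33.4 to 82.5 M reads. The epithelial keratins KRT8, KRT18 and KRT19 were high in every library (44500 at the lowest), whereas the epithelial cadherin CDH1 reached at most 8.21 and was at 0 in 9 libraries. The leukocyte genes PTPRC and CD3E did not exceed 7.80 and 1.75, but CD14 had 47.0 to 272.8 and was at 0 in no library. The endothelial genes PECAM1 and CDH5 did not exceed 3.51 and 2.07, while KDR reached 61.5. Of the fibroblast genes, COL1A1 (384.8 to 947.5), PDGFRB (108.7 to 282) and LUM (97.3 to 261.5) were present in every library, and COL1A2 did not exceed 4.93. The share of counts from the mitochondrial genome was 2.24% to 7.51% in B87+DMKG, 2.42% to 5.39% in Nutlin-3, 2.69% to 4.76% in Rita, 3.34% to 3.67% in B87+DMKG+Nutlin-3, 2.47% to 3.33% in B87+DMKG+Rita, 1.97% to 2.48% in DMKG and 1.33% to 1.66% in B87, beside 1.49% to 2.15% in Control; its part in the results below was not tested.

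The 4 DMKG libraries stood apart in pairs. IL1A had 789.2 and 757.6 counts in DMKG replicates 1 and 2, and 255.8 and 257.0 in replicates 3 and 4. IL1B likewise had 87.7 and 109.2 against 21.6 and 21.6, while LIF ran the other way, with 6880 and 6907 against 11587 and 14204. NFKB2, RELB and TNFAIP3 were also higher in replicates 3 and 4 than in 1 and 2. The labels give no reason, and the comparisons that use DMKG libraries are given below also without each pair where that moves a result. DMKG was not the only uneven group. The median SD of log2 values over all tested rows was 0.249 in B87+DMKG, 0.22 in Nutlin-3, 0.202 in DMKG and 0.136 in Control. In B87+DMKG, RELB had 222.6 and 218.7 in replicates 1 and 2 and 343.0 and 395.8 in 3 and 4. NFKB2 there had 8679 and 8793 against 10209 and 12206. Pairs of B87+DMKG libraries were not left out together.

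**Figure D2:**
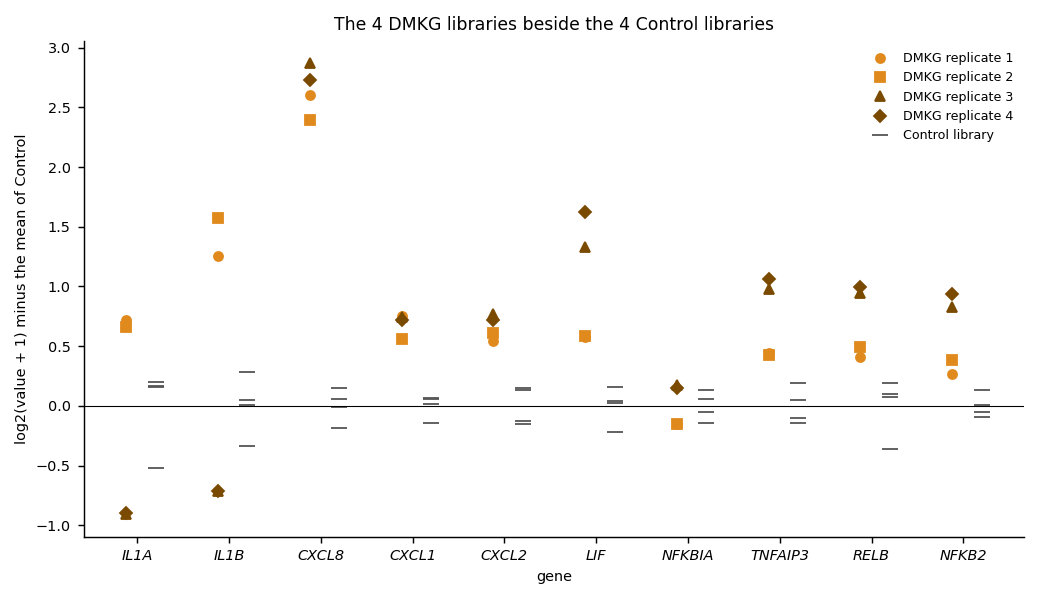
The 4 DMKG libraries (symbols, replicates 1 and 2 in light and 3 and 4 in dark colour) and the 4 Control libraries (dashes), as log2(normalized read count + 1) minus the mean of Control on the y axis, for the 10 genes on the x axis. Replicates 1 and 2 lie above and 3 and 4 below the Control mean in IL1A and IL1B, whereas all 4 lie above every Control library in CXCL8, CXCL1, CXCL2, LIF, TNFAIP3, RELB and NFKB2.

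Per kilobase of exon, the chemokines CXCL1 and CXCL8 stood highest in Control cells. CXCL1 had 17679 ± 1142 counts per kilobase and CXCL8 had 6859 ± 662 (SD, n = 4). NFKBIA followed with 2136 ± 177, then CXCL2 with 1748 ± 198, NFKB2 with 1198 ± 82.5 and LIF with 1168 ± 122 counts per kilobase. TNFAIP3 had 282 ± 30.3, IL1A 231 ± 49.0, RELB 99.9 ± 15.9 and IL1B 11.8 ± 2.08 counts per kilobase. Across the 8 groups the widest range belonged to IL1A, whose mean on the log2(count + 1) scale was 14.2-fold higher in Nutlin-3 than in B87+DMKG, and IL1B, 12.5-fold higher in B87+DMKG+Nutlin-3 than in B87+DMKG. Of all tested rows, 96.9% had a smaller range than IL1A and 96.2% a smaller one than IL1B. The ranges were 6.27-fold for CXCL8, 4.18-fold for CXCL2, 3.37-fold for NFKBIA, 2.93-fold for RELB, 2.15-fold for NFKB2, 2.04-fold for LIF and 1.90-fold for TNFAIP3. CXCL1 was the steadiest at 1.62-fold, with only 15.5% of rows below it.

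**Figure D3:**
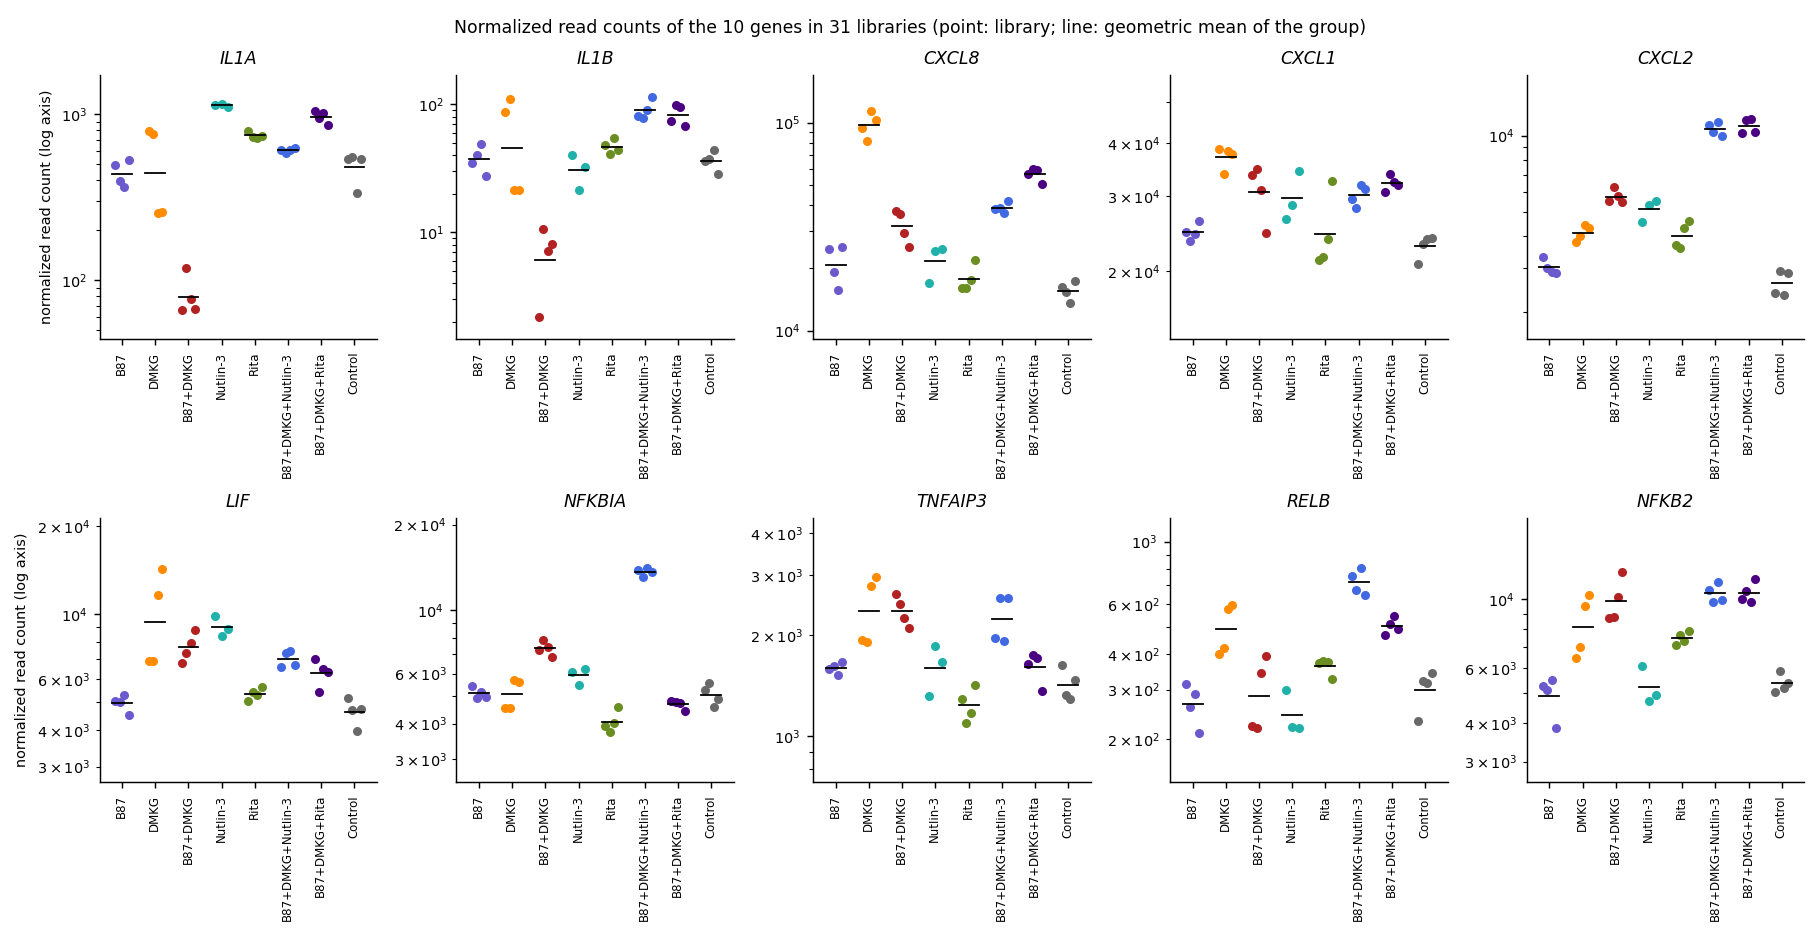
Normalized read counts (log axis) of the 10 genes in 31 libraries, with 1 panel per gene, groups on the x axis, a point per library and a line at the geometric mean of each group. B87+DMKG lies lowest in IL1A and IL1B, DMKG highest in CXCL8, both triple treatments highest in CXCL2, and B87+DMKG+Nutlin-3 highest in NFKBIA.

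The interleukin-1 genes lie beside each other on chromosome 2 (hg19, IL1A at 113531493 to 113542975 and IL1B at 113587332 to 113594357) and encode ligands of the same receptor. IL1A, an alarm cytokine that epithelial cells make and hold, had 66.0, 118.7, 76.6 and 66.6 counts in B87+DMKG libraries, against 537.3, 553.0, 334.2 and 534.8 in Control libraries. It stood at 607.4, 584.9, 607.0 and 625.5 in B87+DMKG+Nutlin-3 and at 1045, 958.1, 1016 and 860.4 in B87+DMKG+Rita. All B87+DMKG libraries were therefore below every other library of the series. Nutlin-3 libraries were the highest, at 1145, 1161 and 1111, and Rita libraries had 798.1, 726.2, 721.5 and 744.0. B87 libraries ranged from 363.3 to 529.0, within the span of Control. In the order of group means, Nutlin-3, B87+DMKG+Rita and Rita were each apart from the next, and B87+DMKG+Nutlin-3, DMKG, Control and B87 overlapped in turn above B87+DMKG.

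IL1B, whose product is the secreted form made after cleavage by caspase-1, was the rarest message of the set. It had 2.2, 10.7, 7.1 and 8.1 counts in B87+DMKG libraries, which rested on 2 to 8 reads per library, against 36.3, 37.3, 44.2 and 28.4 in Control libraries. Both triple treatments were high, with 80.7, 78.9, 89.6 and 114.0 in B87+DMKG+Nutlin-3 and 74.5, 99.1, 95.4 and 67.4 in B87+DMKG+Rita. The triple treatments overlapped each other and did not overlap Control or B87+DMKG. Means were 31.5 ± 9.35 (n = 3) in Nutlin-3, 46.8 ± 5.78 in Rita and 38.0 ± 8.88 in B87 (SD, n = 4), beside 36.6 ± 6.44 in Control. Each of these 3 groups overlapped Control, while the Nutlin-3 libraries all lay below the Rita libraries.

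The chemokine genes share a cluster on chromosome 4 (hg19, CXCL8 at 74606223 to 74609431, CXCL1 at 74735109 to 74737018 and CXCL2 at 74962756 to 74964997). CXCL8, the chief attractant of human neutrophils, had 94567, 81515, 113529 and 103092 counts in DMKG libraries, against 16131, 15402, 13637 and 17219 in Control libraries. DMKG libraries were thus the highest of the series, with no overlap with any other group. The next levels were 56656, 60110, 59280 and 50547 in B87+DMKG+Rita, then 38369, 38893, 36860 and 42172 in B87+DMKG+Nutlin-3 and 37526, 36515, 29364 and 25289 in B87+DMKG. Nutlin-3 averaged 21993 ± 4371 (n = 3), B87 21183 ± 4642 and Rita 17825 ± 2699, beside 15597 ± 1505 in Control (SD, n = 4), and these 4 groups overlapped in turn.

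CXCL2, a neutrophil attractant closely related to CXCL1, had 11050, 10368, 11301 and 9965 counts in B87+DMKG+Nutlin-3 and 10279, 11520, 11640 and 10301 in B87+DMKG+Rita, against 2387, 2898, 2343 and 2859 in Control. The triple treatments overlapped each other and were above all other groups. B87+DMKG averaged 5734 ± 361 and Nutlin-3 5134 ± 505 (n = 3), overlapping each other, while DMKG averaged 4131 ± 289, Rita 4041 ± 485 and B87 3008 ± 205 counts (SD, n = 4). CXCL1 averaged 37061 ± 2206 in DMKG, 32183 ± 1293 in B87+DMKG+Rita, 31011 ± 4604 in B87+DMKG, 30185 ± 1652 in B87+DMKG+Nutlin-3 and 29852 ± 4100 (n = 3) in Nutlin-3. It averaged 24772 ± 5306 in Rita and 24693 ± 1085 in B87, beside 22912 ± 1480 in Control (SD, n = 4), and every group overlapped its neighbour in that order. CXCL1 and CXCL2 share 60 stretches of 50 identical bases, 5.73% of those in CXCL1 and 5.13% of those in CXCL2, and CXCL2 shares 54 with CXCL3, 4.62% of those in CXCL2 and 5.26% of those in CXCL3. Part of the reads of these 3 genes could be counted for another of them, so their values are uncertain to that extent.

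LIF, a cytokine of the interleukin-6 family on chromosome 22 (hg19, 30636436 to 30642840), averaged 9894 ± 3626 counts in DMKG and 9050 ± 742 in Nutlin-3 (n = 3). It averaged 7725 ± 846 in B87+DMKG, 7023 ± 456 in B87+DMKG+Nutlin-3, 6312 ± 680 in B87+DMKG+Rita, 5331 ± 260 in Rita and 4959 ± 311 in B87, beside 4637 ± 484 in Control (SD, n = 4). Neighbours in this order overlapped throughout.

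NFKBIA on chromosome 14 (hg19, 35870717 to 35873960) encodes the inhibitor that holds NF-kB in the cytoplasm and is itself a target of NF-kB. It had 13835, 13114, 14090 and 13641 counts in B87+DMKG+Nutlin-3, and 4797, 4770, 4746 and 4444 in B87+DMKG+Rita, against 5255, 5548, 4587 and 4887 in Control. No other group came near the B87+DMKG+Nutlin-3 libraries, and the B87+DMKG+Rita libraries lay within or just under the span of Control. B87+DMKG averaged 7356 ± 410, Nutlin-3 5917 ± 385 (n = 3), B87 5116 ± 233, DMKG 5101 ± 642 and Rita 4066 ± 363 counts (SD, n = 4). TNFAIP3 on chromosome 6 (hg19, 138188325 to 138204450), whose product edits ubiquitin chains and ends signals upstream of NF-kB, averaged 2399 ± 558 in DMKG, 2363 ± 240 in B87+DMKG and 2257 ± 368 in B87+DMKG+Nutlin-3. Lower levels of 1614 ± 171 in B87+DMKG+Rita, 1611 ± 275 (n = 3) in Nutlin-3, 1595 ± 59.2 in B87 and 1244 ± 141 in Rita stood beside 1426 ± 153 in Control (SD, n = 4). The first 3 of these groups overlapped each other and did not overlap B87+DMKG+Rita.

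RELB on chromosome 19 (hg19, 45504690 to 45541456), the DNA-binding partner of the NFKB2 product, had 754.7, 676.9, 809.3 and 645.2 counts in B87+DMKG+Nutlin-3 and 467.1, 509.7, 547.9 and 489.3 in B87+DMKG+Rita. B87+DMKG libraries had 222.6, 218.7, 343.0 and 395.8, against 232.8, 321.8, 316.3 and 342.3 in Control. The B87+DMKG+Nutlin-3 libraries were above all others, whereas B87+DMKG and Control overlapped. DMKG averaged 499.5 ± 103.0, Rita 363 ± 24.6, B87 269 ± 44.5 and Nutlin-3 247 ± 46.1 counts (SD, n = 4; n = 3 for Nutlin-3). NFKB2 on chromosome 10 (hg19, 104153867 to 104162286) averaged 10512 ± 814 in B87+DMKG+Rita, 10468 ± 745 in B87+DMKG+Nutlin-3, 9972 ± 1644 in B87+DMKG, 8324 ± 1878 in DMKG and 7514 ± 359 in Rita, all of which overlapped their neighbours. Nutlin-3 averaged 5239 ± 749 (n = 3) and B87 4925 ± 731, beside 5371 ± 370 in Control (SD, n = 4), and these were apart from the higher groups.

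The comparisons used limma on log2(normalized count + 1) over the 16259 rows with a mean of at least 10, which all 10 genes passed, and a call needed a p under 0.05 after Benjamini-Hochberg adjustment over these rows. Fold changes are on that scale, which understates the change of a rare message such as IL1B, and errors are standard errors. The 10 genes and all lists were chosen with earlier results of these data known. A count or median beside that of all rows, here and below, is therefore a description and no test of the set. With B87 alone, 0 of the 10 genes were called, in a comparison where 0.0431% of all rows were called. CXCL8 had a log2 fold change of 0.42 ± 0.14 over Control (95% interval 0.13 to 0.71, adjusted p = 0.62) and CXCL2 one of 0.20 ± 0.09 (0.03 to 0.38, adjusted p = 0.77), and at an unadjusted p under 0.05 these 2 were the only members. edgeR and DESeq2 on recovered reads called 0 of the 10 as well. A p above the threshold does not show that B87 leaves these genes alone.

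DMKG raised the chemokines, LIF, TNFAIP3 and both subunits, and CXCL8 most of all. CXCL8 was 6.27-fold higher in DMKG than in Control (log2 2.65 ± 0.14, adjusted p = 2.2e-15), the largest change of the set in any comparison with Control. LIF rose by 1.03 ± 0.14 (adjusted p = 1.1e-06), TNFAIP3 by 0.73 ± 0.13, RELB by 0.71 ± 0.17, CXCL1 by 0.69 ± 0.10, CXCL2 by 0.66 ± 0.09 and NFKB2 by 0.61 ± 0.12 on the log2 scale. In these 7 genes every DMKG library exceeded every Control library, a separation found in 39.6% of all rows in either direction. The calls came to 7 of 10 genes, all higher, where 41.4% of all rows were called and 19.6% were called higher. The median log2 fold change was 0.68 over the 10 genes and 0.03 over all rows. NFKBIA had a log2 fold change of 0.00 ± 0.08 (95% interval -0.15 to 0.16). IL1A had one of -0.11 ± 0.25 and IL1B one of 0.35 ± 0.39, and neither mean describes its libraries. Without replicates 3 and 4, IL1A was higher in DMKG by 0.69 (adjusted p = 0.0055) and IL1B by 1.41 (adjusted p = 0.0025), and RELB was no longer called at 0.45 (adjusted p = 0.079). Without replicates 1 and 2, IL1A was lower by 0.90 (log2 -0.90, adjusted p = 0.00025) and IL1B had -0.72 (adjusted p = 0.10), while LIF stood at 1.47, TNFAIP3 at 1.02, RELB at 0.97 and NFKB2 at 0.89. Without 3 and 4, LIF stood at 0.58, TNFAIP3 at 0.43 and NFKB2 at 0.33, all still called.

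Other chemokine genes moved with them in DMKG. Of 6 further chemokine and receptor genes tested, 4 rose and 1 fell, with a median log2 fold change of 0.64, beside 41.4% of rows called and a median of 0.03 over all rows. CXCL3, a close relative of CXCL2, rose by 0.84 ± 0.10 and CCL20, an attractant of dendritic cells and lymphocytes, by 1.00 ± 0.26, while CCL2, an attractant of monocytes, had -1.56 ± 0.40 (adjusted p = 0.0022). Among 12 further NF-kB subunits and inhibitors only TNIP1, a partner of the TNFAIP3 product, rose (0.50 ± 0.09), and 4 fell, led by the inhibitor NFKBIE at -1.04 ± 0.24, a total near the share of all rows and so no result about that list. The 23 other NF-kB target genes split into 8 that rose and 7 that fell, with a median of -0.12. IL6 rose by 1.53 ± 0.17 and IER3, an immediate early response gene, by 1.19 ± 0.13, whereas TNF, the gene of tumour necrosis factor, had -2.88 ± 0.51 (adjusted p = 3.6e-05). The fibroblast markers PDGFRB (0.52 ± 0.12) and LUM (0.51 ± 0.18) rose in the same comparison; their part in these results was not tested.

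B87+DMKG separated the interleukin-1 genes from the rest. IL1A was lower in B87+DMKG than in Control by 2.58 on the log2 scale (-2.58 ± 0.25, adjusted p = 5.1e-10), and IL1B likewise (-2.35 ± 0.39, adjusted p = 6.1e-06). The chemokines rose, CXCL2 by 1.13 ± 0.09, CXCL8 by 1.03 ± 0.14 and CXCL1 by 0.43 ± 0.10, as did NFKB2 by 0.88 ± 0.12, LIF by 0.74 ± 0.14, TNFAIP3 by 0.73 ± 0.13 and NFKBIA by 0.54 ± 0.08. RELB had -0.07 ± 0.17 (95% interval -0.42 to 0.27). Its B87+DMKG libraries split as given above, replicates 1 and 2 below 3 and 4, so this mean lies between the pairs. In all, 9 of 10 genes were called, 7 higher and 2 lower, where 61.0% of all rows were called, and the groups did not overlap in any of the 9, as in 51.9% of all rows. The median was 0.63 over the 10 genes and 0.00 over all rows. The fold change of IL1B was -1.83 with a pseudocount of 5 and -2.45 with 0.5, since so few reads lie behind it, and all alternatives kept the call. Beside these changes the keratins KRT18 and KRT8 were lower by -0.34 ± 0.10 and -0.28 ± 0.11, and the 6 epithelial markers summed to between 205900 and 314100 in B87+DMKG and between 246200 and 280500 in Control. The 7 leukocyte markers, most of them CD14 (-1.69 ± 0.28), summed to 67.1 to 122.2 in B87+DMKG and 210.1 to 265.3 in Control. The 5 endothelial markers, most of them KDR (1.95 ± 0.59), summed to 32.0 to 66.0 in B87+DMKG and 9.55 to 21.4 in Control, and the 5 fibroblast markers to 754.6 to 962.1 and 945.3 to 1024. The part of these markers in the result was not tested.

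**Figure D4:**
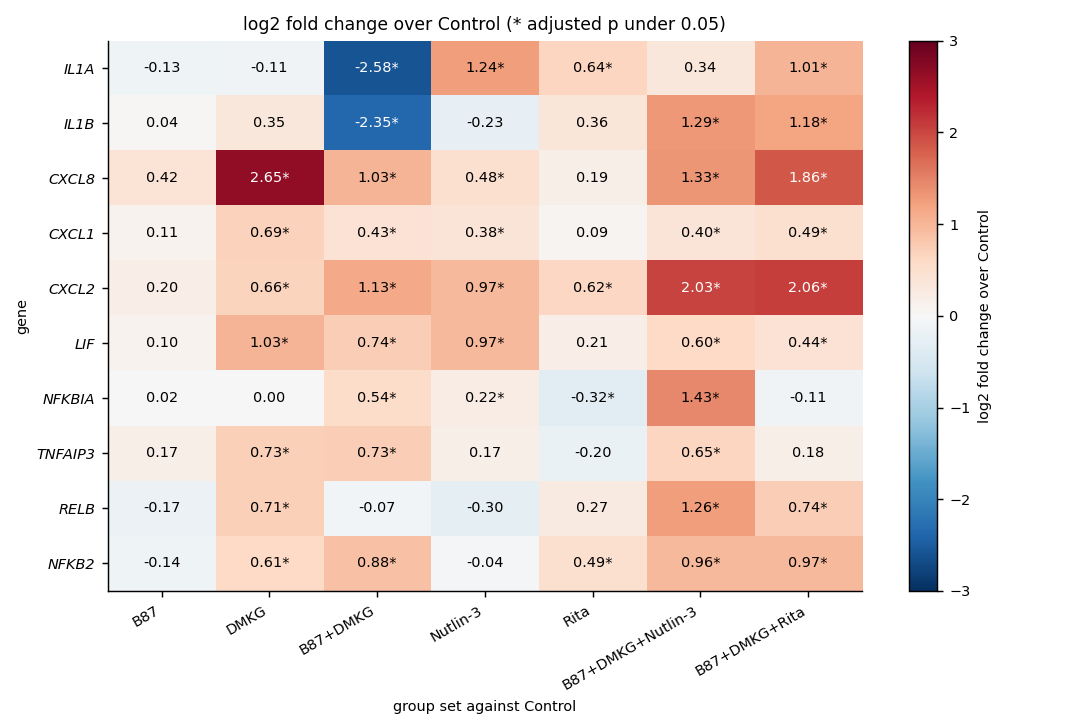
log2 fold change over Control (colour and printed value) of the 10 genes in rows and the 7 treated groups in columns, from limma, with an asterisk at an adjusted p under 0.05. IL1A at -2.58 and IL1B at -2.35 in B87+DMKG are the only called falls beside NFKBIA at -0.32 in Rita, and CXCL8 at 2.65 in DMKG is the largest rise.

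Set against DMKG alone, the combination lowered CXCL8, the gene that DMKG raised most, and both interleukin-1 genes. CXCL8 was lower in B87+DMKG than in DMKG (-1.62 ± 0.14, adjusted p = 4.1e-11), RELB too (-0.78 ± 0.17, adjusted p = 0.00021), and IL1A (-2.47 ± 0.25) and IL1B (-2.70 ± 0.39) fell below both pairs of DMKG libraries. CXCL2 (0.47 ± 0.09) and NFKBIA (0.54 ± 0.08) rose. The 7 calls of 10 genes compare with 60.1% of all rows, so the count by itself is not a result about these genes. Of the markers, 3 of 5 tested epithelial and 2 of 4 fibroblast genes were lower in B87+DMKG than in DMKG. CD14 was lower too (-1.07) and KDR higher (1.92), and the part of these markers was not tested. Without DMKG replicates 1 and 2, IL1A stood at -1.68 and IL1B at -1.64, and without 3 and 4 at -3.26 and -3.77, all called. CXCL1 (-0.27 ± 0.10, adjusted p = 0.027) lost its call without DMKG replicate 1 (adjusted p = 0.064), without DMKG replicate 3 (0.059) or without B87+DMKG replicate 4 (0.17). It also lost the call without DMKG replicates 1 and 2 (-0.30, adjusted p = 0.0506) and without 3 and 4 (-0.23, adjusted p = 0.129). LIF was called at -0.74 without DMKG replicates 1 and 2 and NFKB2 at 0.55 without 3 and 4. LIF also gained a call without DMKG replicate 1 (-0.44) or 2 (-0.44) or B87+DMKG replicate 4 (-0.35), and NFKB2 without DMKG replicate 3 (0.35) or 4 (0.39) or B87+DMKG replicate 1 (0.34) or 2 (0.33).

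Set against B87 alone, IL1A (-2.45 ± 0.25) and IL1B (-2.39 ± 0.39) fell, and 7 genes rose, from NFKB2 at 1.02 ± 0.12 and CXCL2 at 0.93 ± 0.09 to CXCL1 at 0.32 ± 0.10. These 9 of 10 calls stand beside 62.6% of all rows. Of 5 tested epithelial markers 1 rose and 2 fell over B87, and of 4 fibroblast markers 1 rose and 2 fell. CD14 was lower (-1.43) and KDR higher (2.06), and the part of these markers was not tested. The combination was then compared with the sum of its parts, as the effect of DMKG in the presence of B87 minus its effect without. IL1B (-2.74 ± 0.55, adjusted p = 0.00015), IL1A (-2.34 ± 0.36, adjusted p = 3.3e-06) and CXCL8 (-2.04 ± 0.20, adjusted p = 1.4e-09) fell short of that sum, and NFKBIA exceeded it (0.52 ± 0.11, adjusted p = 0.00022). The sizes differed with the DMKG pair used: without replicates 1 and 2, IL1A had -1.55, IL1B -1.68, CXCL8 -2.19 and NFKBIA 0.36, and without replicates 3 and 4, IL1A had -3.14, IL1B -3.81, CXCL8 -1.89 and NFKBIA 0.68, all called. Without 1 and 2, LIF (-0.84) and TNFAIP3 (-0.46) were called as well, and without 3 and 4, CXCL2 (0.35) and NFKB2 (0.69). RELB (-0.61 ± 0.24) and CXCL1 (-0.38 ± 0.15) were also called, with adjusted p = 0.035 and 0.034, but RELB lost its call on leaving out B87 replicate 1 or 3, Control replicate 1, DMKG replicate 3 or 4 or B87+DMKG replicate 1 or 2 (adjusted p from 0.0641 to 0.0969), and without DMKG replicates 3 and 4 (-0.35, adjusted p = 0.256). CXCL1 lost its own without B87 replicate 4, Control replicate 1, DMKG replicate 1 or 3 or B87+DMKG replicate 4 (adjusted p from 0.0562 to 0.104), and without DMKG replicates 3 and 4 (0.0943). LIF became called without DMKG replicate 1 or 2 (-0.54 each), CXCL2 without B87 replicate 1, Control replicate 1 or 3 or DMKG replicate 3 (0.31 or 0.32), and NFKB2 without B87 replicate 1 or 3, DMKG replicate 3 or 4 or B87+DMKG replicate 1 or 2 (0.45 to 0.52). The 6 called genes compare with 48.8% of all rows.

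Around B87+DMKG the other genes of these pathways divided. Against Control, 3 of 6 further chemokine and receptor genes rose and 1 fell (median 0.68, beside 0.00 over all rows), with CCL20 at 1.49 ± 0.26, CXCL3 at 1.46 ± 0.10 and CXCL5, which also draws neutrophils, with -0.63 ± 0.12. Of 11 further interleukin-1 family and receptor genes 1 rose and 5 fell (median -0.30), among them the signalling genes TRAF6 at -0.83 ± 0.22 and IRAK4 at -0.58 ± 0.17 and the receptor subunit IL1RAP at -0.59 ± 0.16. Of 12 further subunits and inhibitors, the subunit gene RELA was the only one to rise (0.93 ± 0.09), and 5 fell, with the deubiquitinase gene CYLD at -0.86 ± 0.10. The other target genes gave 3 rises and 12 falls of 23 (median -0.24), with TNFRSF9, a receptor of activated lymphocytes, at -2.97 ± 0.52 and the protease gene PLAU at 1.00 ± 0.12. With 61.0% of all rows called, the total called in each of these 4 lists is near that share and no result about the list; only the direction and the values are described.

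Nutlin-3 alone raised IL1A by 1.24 ± 0.27 (adjusted p = 0.00052), CXCL2 by 0.97 ± 0.09 (adjusted p = 1.7e-09) and LIF by 0.97 ± 0.16 (adjusted p = 1.2e-05) over Control, and in these the groups did not overlap, as in 41.9% of all rows. CXCL8 (0.48 ± 0.15), CXCL1 (0.38 ± 0.11) and NFKBIA (0.22 ± 0.08) were called too, which makes 6 of 10 genes, all higher, where 39.1% of all rows were called and 18.5% were called higher. Those 3 calls were lost without Nutlin-3 replicate 3 (adjusted p = 0.090, 0.099 and 0.13) or once all libraries were scaled to 1 total, that of CXCL8 also without Nutlin-3 replicate 2 (0.076), and that of NFKBIA also without Nutlin-3 replicate 1 or Control replicate 3 or 4. Around them, none of 6 further chemokine and receptor genes rose and CCL20 fell (-0.70 ± 0.28). IL6 rose by 1.27 ± 0.18, but of 23 other target genes 7 rose and 9 fell. Their median was -0.16, beside -0.01 over all rows, of which 39.1% were called. Of 12 further subunits and inhibitors 1 rose, RELA by 0.67 ± 0.10, and 3 fell, with NFKBID at -0.98 ± 0.30 (median of the list -0.15). That total is near the share of all rows and no result about the list. Markers moved in the same comparison, KRT8 by -0.38 ± 0.12, KRT18 by -0.28 ± 0.10, CD14 by -0.84 ± 0.30, PDGFRB by -0.43 ± 0.13 and KDR by -1.86 ± 0.63. The leukocyte markers summed to 122 to 148.9 in Nutlin-3 and 210.1 to 265.3 in Control, the epithelial ones to 205800 to 273000 and 246200 to 280500, the fibroblast ones to 745.2 to 1098 and 945.3 to 1024, and the endothelial ones to 0 to 4.83 and 9.55 to 21.4; their part in the result was not tested.

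Rita alone raised CXCL2 by 0.62 ± 0.09 (adjusted p = 4.5e-07) and NFKB2 by 0.49 ± 0.12 (adjusted p = 0.0015), and NFKBIA fell (-0.32 ± 0.08, adjusted p = 0.00083). IL1A was called at 0.64 ± 0.25 (adjusted p = 0.035) and lost that call without Control replicate 3 (0.46, adjusted p = 0.15) or without any 1 of the 4 Rita libraries (adjusted p from 0.0535 to 0.0714). The 4 calls of 10 genes are fewer than the 52.1% of all rows. CXCL8 had 0.19 ± 0.14 (95% interval -0.10 to 0.47) and CXCL1 0.09 ± 0.10 (-0.12 to 0.30). Among other genes, CXCR4, a chemokine receptor, rose by 3.13 ± 0.74, TNF by 2.08 ± 0.51, the inhibitor-like regulator NFKBIZ by 1.37 ± 0.15, IER3 by 1.37 ± 0.13 and the prostaglandin synthase gene PTGS2 by 1.36 ± 0.17. CXCR4 and TNF had wider errors than the rare IL1B in this comparison (0.39), so the size of their change is uncertain. Of 12 further subunits and inhibitors 4 rose and 4 fell (median -0.26), and of 23 other target genes 8 rose and 7 fell (median 0.13). Of 11 further interleukin-1 family and receptor genes 3 rose and 4 fell (median 0.05). Of 6 further chemokine and receptor genes 4 rose and 0 fell (median 0.38). The median over all rows was 0.03, and with 52.1% of them called only direction and values are described.

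Between both inhibitors given alone, LIF (0.76 ± 0.16, adjusted p = 0.00015), NFKBIA (0.54 ± 0.08, adjusted p = 2.3e-06) and CXCL2 (0.35 ± 0.09) were higher in Nutlin-3 than in Rita, and NFKB2 was lower (-0.53 ± 0.13, adjusted p = 0.0015). TNFAIP3 (0.36 ± 0.14) and CXCL1 (0.28 ± 0.11) were called higher and RELB (-0.57 ± 0.18) lower, but each lost its call without Nutlin-3 replicate 2 or 3, TNFAIP3 also without Rita replicate 2 or 3 and CXCL1 also without Rita replicate 1, 2 or 3. CXCL8 (0.29 ± 0.15, adjusted p = 0.11) gained one without Nutlin-3 replicate 1 (0.47) or Rita replicate 4 (0.39). IL1A (0.61 ± 0.27, adjusted p = 0.063) was not called although every Nutlin-3 library exceeded every Rita library, and it was called with edgeR (adjusted p = 0.0384), with libraries scaled to 1 total (0.045) and in a fit of only these groups (0.000345), while the other alternatives gave up to 0.129. In all 7 of 10 genes were called, beside 51.2% of all rows. KRT8 (-0.38 ± 0.12), KRT18 (-0.38 ± 0.10), KRT7 (-0.57 ± 0.16), CD14 (-0.74 ± 0.30) and PDGFRB (-0.47 ± 0.13) were also lower in Nutlin-3 than in Rita; their part was not tested. The regulator NFKBIZ was lower in Nutlin-3 than in Rita (-1.79 ± 0.16), as were PTGS2 (-1.89 ± 0.18) and TNF (-2.33 ± 0.55). These named genes do not stand for their lists. Of 23 other target genes 8 were higher and 9 lower (median 0.05), and of 12 further subunits and inhibitors 4 were higher and 3 lower (median -0.14). The median over all rows was -0.03.

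With either inhibitor added to B87+DMKG, the interleukin-1 messages were high again. In B87+DMKG+Nutlin-3, IL1B was higher than in B87+DMKG by 3.64 ± 0.39 (adjusted p = 4.4e-09) and IL1A by 2.91 ± 0.25 (adjusted p = 5.8e-11). In B87+DMKG+Rita, IL1A was higher by 3.59 ± 0.25 (adjusted p = 2.6e-13) and IL1B by 3.53 ± 0.39 (adjusted p = 3.8e-09). These comparisons share the B87+DMKG libraries, in which both genes were lowest. CXCL2 rose by 0.90 ± 0.09 with Nutlin-3 and 0.93 ± 0.09 with Rita, and RELB by 1.33 ± 0.17 and 0.82 ± 0.17 in the same order. NFKBIA rose with Nutlin-3 (0.90 ± 0.08, adjusted p = 4.2e-11) and fell with Rita (-0.65 ± 0.08, adjusted p = 1.3e-08), and TNFAIP3 fell with Rita (-0.55 ± 0.13) and had -0.08 ± 0.13 with Nutlin-3. CXCL8 rose with Rita (0.83 ± 0.14) and had 0.30 ± 0.14 with Nutlin-3 (adjusted p = 0.069), where leaving out B87+DMKG replicate 1 or 2 brought a call (0.38 and 0.36). The calls were 5 of 10 with Nutlin-3, all higher, beside 58.9% of all rows called and 26.5% called higher, and 7 of 10 with Rita, beside 67.3%, so the total counts are not a result about these genes. Medians were 0.60 with Nutlin-3 and 0.45 with Rita over the 10 genes, and -0.05 and 0.00 over all rows.

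**Figure D5:**
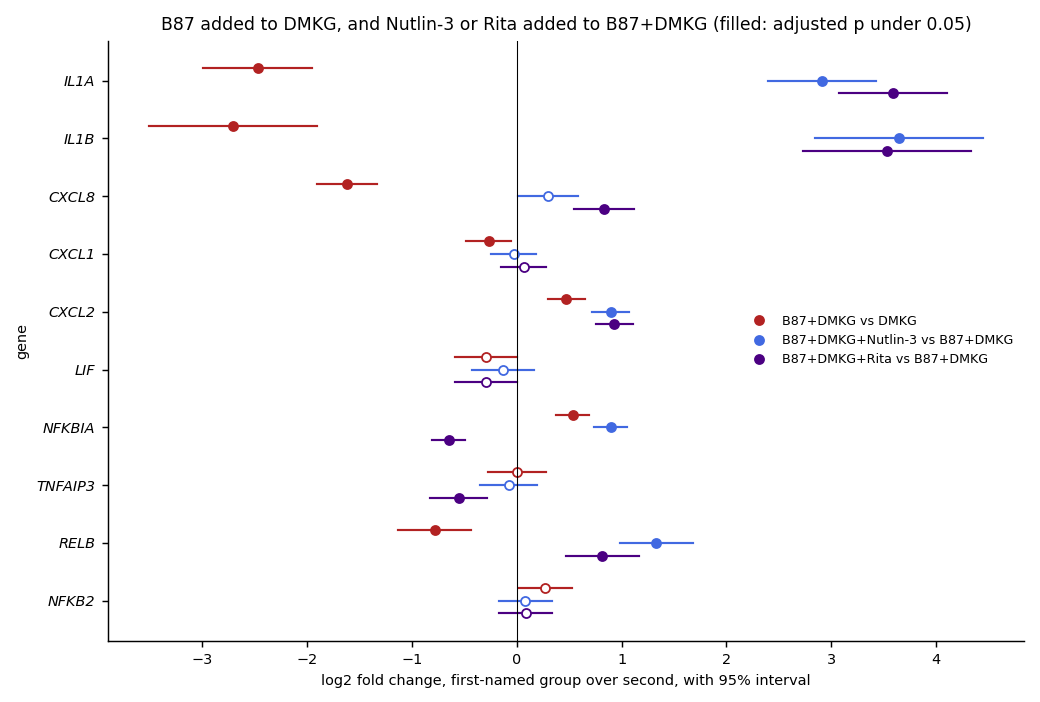
log2 fold changes with 95% intervals (x axis) of the 10 genes (y axis) in B87+DMKG over DMKG, in B87+DMKG+Nutlin-3 over B87+DMKG and in B87+DMKG+Rita over B87+DMKG; filled points had an adjusted p under 0.05. IL1A and IL1B lie at -2.47 and -2.70 in the first and between 2.91 and 3.64 in the others, and NFKBIA lies at 0.90 with Nutlin-3 and -0.65 with Rita.

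Among target genes outside the set, more rose than fell with each inhibitor. With Nutlin-3 added, 13 of 23 rose and 3 fell (median 0.25, beside -0.05 over all rows, of which 58.9% were called and 26.5% called higher), among them TNF at 2.58 ± 0.51, IER3 at 2.52 ± 0.13, the granulocyte growth factor gene CSF3 at 2.32 ± 0.52 and TNFRSF9 at 2.22 ± 0.52. With Rita added, 11 rose and 7 fell (median 0.38, beside 0.00 over all rows, of which 67.3% were called), led by IER3 at 2.64 ± 0.13, TNF at 2.51 ± 0.51, TNFRSF9 at 2.32 ± 0.52 and PTGS2 at 2.06 ± 0.17. Among 12 further subunits and inhibitors, NFKBIE (1.00 ± 0.24) and TNIP1 (0.69 ± 0.09) rose with Nutlin-3 and NFKBIZ (1.10 ± 0.15) with Rita, with 5 rises and 4 falls for Nutlin-3 and 4 rises and 6 falls for Rita. In the interleukin-1 list, the inhibitory receptor gene SIGIRR rose with both (1.40 ± 0.20 and 1.33 ± 0.20), while the kinase gene IRAK2 rose with Nutlin-3 (0.89 ± 0.17) and fell with Rita (-1.06 ± 0.17). The keratins rose as well, KRT18 by 0.93 ± 0.10 with Nutlin-3 and 0.91 ± 0.10 with Rita, and CD14 by 1.85 ± 0.28 and 1.59 ± 0.28, in the same order. The epithelial markers summed to 347600 to 417500 in B87+DMKG+Nutlin-3 and 346200 to 394300 in B87+DMKG+Rita, and the leukocyte markers to 223.6 to 292.9 and 172.7 to 261.2. The fibroblast markers summed to 1085 to 1245 and 1316 to 1391, in the same order. KDR fell (-1.83 and -2.41), and the endothelial markers summed to 8.57 to 18.1 and 5.66 to 21.0. These sums stand against those for B87+DMKG given above, and the part of the markers in these results was not tested.

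The effect of each inhibitor was then set against its effect without B87+DMKG. For Nutlin-3 the effect was larger in the presence of B87+DMKG by 3.88 ± 0.58 for IL1B (adjusted p = 1.5e-06), 1.67 ± 0.37 for IL1A (adjusted p = 0.00035), 1.63 ± 0.25 for RELB (adjusted p = 2.5e-06) and 0.67 ± 0.11 for NFKBIA (adjusted p = 9.5e-06). It was smaller for LIF (-1.10 ± 0.21, adjusted p = 6.5e-05), which had -0.13 ± 0.14 for Nutlin-3 on B87+DMKG and 0.97 ± 0.16 for Nutlin-3 alone, and for CXCL1 (-0.40 ± 0.15, adjusted p = 0.026). The call of CXCL1 was lost without Control replicate 1, B87+DMKG replicate 1 or 2, Nutlin-3 replicate 3 or B87+DMKG+Nutlin-3 replicate 2 (adjusted p from 0.0503 to 0.118). For Rita it was larger by 3.18 ± 0.55 for IL1B (adjusted p = 2.4e-05) and 2.95 ± 0.36 for IL1A (adjusted p = 9.2e-08), and by 0.65 ± 0.20 for CXCL8 (adjusted p = 0.0081). NFKBIA fell further with Rita in the presence of B87+DMKG (difference -0.33 ± 0.11, adjusted p = 0.013). It had -0.65 ± 0.08 for Rita on B87+DMKG and -0.32 ± 0.08 for Rita alone. CXCL2 (0.31 ± 0.12) and LIF (-0.50 ± 0.20) were called for Rita with adjusted p = 0.037 and 0.045 and lost the call on leaving out single libraries: CXCL2 with Control replicate 2 or 4, B87+DMKG replicate 1 or 4, Rita replicate 1 or 2 or B87+DMKG+Rita replicate 2 or 3, and LIF with 11 of the 16, all but replicate 1 of each group and B87+DMKG replicate 2. RELB gained a call without Control replicate 1 (0.67) or B87+DMKG replicate 3 (0.63) or 4 (0.70), and NFKB2 without Control replicate 2 (-0.44), B87+DMKG replicate 1 (-0.46) or 2 (-0.45) or B87+DMKG+Rita replicate 4 (-0.45). With quantile normalization the CXCL8 value was 0.45 (adjusted p = 0.066). The 6 genes called for each inhibitor compare with 56.9% of all rows for Nutlin-3 and 48.6% for Rita.

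Against Control, the triple treatments left most of the set above the untreated level. In B87+DMKG+Nutlin-3, 9 of 10 genes rose, where 58.0% of all rows were called and 28.3% called higher, from CXCL2 at 2.03 ± 0.09 (adjusted p = 8.5e-19), NFKBIA at 1.43 ± 0.08 and CXCL8 at 1.33 ± 0.14 through IL1B at 1.29 ± 0.39 (adjusted p = 0.0057) and RELB at 1.26 ± 0.17 to CXCL1 at 0.40 ± 0.10. IL1A had 0.34 ± 0.25 (adjusted p = 0.26), although its libraries did not overlap those of Control. In B87+DMKG+Rita, 8 of 10 rose, beside 60.1% of all rows called and 29.4% called higher, with CXCL2 at 2.06 ± 0.09, CXCL8 at 1.86 ± 0.14, IL1B at 1.18 ± 0.39 (adjusted p = 0.010), IL1A at 1.01 ± 0.25 (adjusted p = 0.0010), NFKB2 at 0.97 ± 0.12, RELB at 0.74 ± 0.17, CXCL1 at 0.49 ± 0.10 and LIF at 0.44 ± 0.14. NFKBIA had -0.11 ± 0.08 (95% interval -0.27 to 0.05) and TNFAIP3 0.18 ± 0.13 (-0.10 to 0.45). With libraries scaled to 1 total, LIF lost its call (0.19, adjusted p = 0.28) and NFKBIA gained one (-0.37, adjusted p = 7.6e-05). The keratin KRT18 rose too, by 0.58 ± 0.10 in B87+DMKG+Nutlin-3 and 0.56 ± 0.10 in B87+DMKG+Rita, with 4 and 5 of 5 tested epithelial markers called higher, and PDGFRB by 0.33 ± 0.12 and 0.54 ± 0.12; their part was not tested.

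Adding B87+DMKG to each inhibitor raised CXCL8, CXCL2 and NFKB2. Over Nutlin-3, B87+DMKG+Nutlin-3 was higher in RELB by 1.55 ± 0.18, IL1B by 1.53 ± 0.42, NFKBIA by 1.21 ± 0.08, CXCL2 by 1.06 ± 0.09, NFKB2 by 1.01 ± 0.13, CXCL8 by 0.85 ± 0.15 and TNFAIP3 by 0.49 ± 0.14, and lower in IL1A (-0.91 ± 0.27, adjusted p = 0.0051). LIF was called lower (-0.36 ± 0.16, adjusted p = 0.045) and lost that call without any 1 of the 3 Nutlin-3 libraries or of B87+DMKG+Nutlin-3 replicates 1, 2 and 4, and TNFAIP3 lost its call without Nutlin-3 replicate 1 (adjusted p = 0.056). The 9 calls stand beside 59.7% of all rows. Markers moved here too, with 4 of 5 tested epithelial markers (median 0.78) and 2 of 4 fibroblast markers called higher. CD14 (1.00) and KDR (1.98) were also higher in B87+DMKG+Nutlin-3 than in Nutlin-3, and the part of these markers was not tested. Over Rita, B87+DMKG+Rita was higher in CXCL8 by 1.68 ± 0.14, CXCL2 by 1.44 ± 0.09, NFKB2 by 0.48 ± 0.12 and CXCL1 by 0.40 ± 0.10. RELB (0.47 ± 0.17), TNFAIP3 (0.38 ± 0.13) and NFKBIA (0.21 ± 0.08) were called as well, which makes 7 of 10, all higher, where 23.4% of all rows were called and 9.35% called higher, but their adjusted p of 0.042, 0.040 and 0.046 lay near the threshold. RELB lost its call without any 1 of the 8 libraries, and TNFAIP3 and NFKBIA without replicate 1, 2 or 3 of either group, which left 4 to 6 called genes. IL1A (0.37 ± 0.25, adjusted p = 0.30) and IL1B (0.82 ± 0.39, adjusted p = 0.13) were not called although every B87+DMKG+Rita library exceeded every Rita library. In a fit of only these groups all 10 genes were called, IL1A with adjusted p = 0.0031 and IL1B with 0.00437, while the other alternatives called neither and gave up to 0.465 and 0.264. The keratins KRT18 (0.45 ± 0.10), KRT8 (0.39 ± 0.11) and KRT19 (0.36 ± 0.11) and the fibroblast marker PDGFRB (0.49 ± 0.12) rose in the same comparison; their part was not tested.

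Between the triple treatments, NFKBIA differed most, at 1.54 ± 0.08 higher in B87+DMKG+Nutlin-3 than in B87+DMKG+Rita (2.92-fold, adjusted p = 4.9e-17). RELB (0.51 ± 0.17, adjusted p = 0.012) and TNFAIP3 (0.48 ± 0.13, adjusted p = 0.0036) were higher too, and CXCL8 was lower (-0.53 ± 0.14, adjusted p = 0.0020). IL1A was called lower (-0.67 ± 0.25, adjusted p = 0.028) and lost that call without B87+DMKG+Nutlin-3 replicate 2 (0.054) or B87+DMKG+Rita replicate 1 (0.062) or 3 (0.057). CXCL2 had -0.03 ± 0.09 (95% interval -0.21 to 0.14), NFKB2 -0.01 ± 0.12 (-0.26 to 0.25) and IL1B 0.11 ± 0.39 (-0.69 to 0.91), where the interval of IL1B is wide. The 5 calls stand beside 48.3% of all rows. In the same comparison the feedback inhibitor NFKBIE (1.02 ± 0.24) and TNIP1 (0.97 ± 0.09) were higher, as was IRAK2 (1.95 ± 0.17), and NFKBIZ was lower (-1.66 ± 0.15).

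Across the 8 group means the members did not follow one pattern. IL1A and IL1B had a Pearson correlation of 0.81, and CXCL8 and CXCL1 one of 0.92, whereas IL1A and CXCL8 had -0.05, as a description over 8 points that share libraries. The genes most like each member, among 11139 candidates with a mean of at least 50, were CLDN7, HSPA13 and CHAC1 for IL1A (0.98, 0.97 and 0.97), SLC35B1, EPHA8 and SF3B5 for IL1B (0.99, 0.98 and 0.98), HDAC5, AXL and STC1 for CXCL8 (0.98, 0.95 and 0.94), CDH13, PPL and ITGA3 for CXCL1 (0.95, 0.94 and 0.93) and GALNT14, UBA3 and LINC01273 for CXCL2 (0.99, 0.95 and 0.95). For LIF they were CA5B, GOLGA2 and GMDS (0.96, 0.94 and 0.93), for NFKBIA AATF, ACSF3 and PRKD2 (0.96 each), for TNFAIP3 WNK3, KIAA0319L and GAB2 (0.97, 0.97 and 0.96), for RELB FBXO6, TRIM52-AS1 and CHCHD6 (0.99, 0.98 and 0.98) and for NFKB2 STMN3, MAP4K2 and PTK6 (0.99 each). Ranking by Spearman correlation or over all 31 libraries shared 0 to 2 of the 3 names, so these lists depend on the measure.

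The messages also differ in AU-rich pentamers, counted as ATTTA in the untranslated end after the coding sequence, from GENCODE v29 on GRCh38. CXCL2 holds 10, a count that 15.4% of genes reach and a density of 13.9 per kilobase that 0.28% reach, and IL1B holds 6 at 9.84 per kilobase. CXCL8 holds 9 at 7.19 per kilobase, CXCL1 holds 5 at 7.08, NFKB2 holds 1 in a short end at 6.54 and NFKBIA holds 3 at 5.98, a density that 5.45% of genes reach. IL1A holds 5 at 4.34 per kilobase, TNFAIP3 holds 5 at 2.51, LIF holds 7 at 2.18 and RELB holds 0. In order of density, log2 fold changes in B87+DMKG over Control were 1.13 ± 0.09 for CXCL2, -2.35 ± 0.39 for IL1B and 1.03 ± 0.14 for CXCL8. CXCL1 had 0.43 ± 0.10, NFKB2 0.88 ± 0.12, NFKBIA 0.54 ± 0.08 and IL1A -2.58 ± 0.25. TNFAIP3 had 0.73 ± 0.13, LIF 0.74 ± 0.14 and RELB -0.07 ± 0.17. Decay was not measured, and its part in these values was not tested.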

How the data were processed

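Poly(A) RNA of 31 H460 libraries was sequenced after a stranded mRNA preparation, per the labels' protocols. The submitters' processing notes name FastQC, STAR 2.4.0, Picard, SAMtools and DESeq2, and the genome build mm10, whereas the deposited gene positions are those of human genes on hg19. For strand use in counting, the sources used here give nothing. The deposited table holds a normalized count signal, gene counts that the authors divided by a size factor per library. All 690132 values above 0 came out whole within 0.1 of a read, so the reads were recovered, 33.4 to 82.5 M per library. Of the recovered counts below 1000, 55.8% to 59.2% per library were even. The reason was not tested, and recovered reads may not all be independent. In every library the step of 1 read was taken from the values themselves, and in 2 libraries it lay within 1% of 1.

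Rows with a mean of at least 10 (16259 of 74834, of which 51656 carry no symbol) were analysed as log2(value + 1) with limma 3.58.1 in R 4.3.3. One fit over all 8 groups had 23 residual and 7.14 prior degrees of freedom. Benjamini-Hochberg adjustment ran over all tested rows in each of 18 comparisons, and intervals are at 95%. The fit was also run on simulated counts with few changed rows and a single spread for all genes and groups, taken from Control. The groups differed in spread (median SD 0.136 in Control and 0.249 in B87+DMKG), so that run does not measure the error rate of these comparisons. Alternatives were pseudocounts of 0.5 and 5, a mean of at least 50 or no filter, quantile or total scaling, only the compared groups, a replicate block, single libraries or DMKG pairs left out, a fold limit, and edgeR 4.0.16 and DESeq2 1.42.0 on the recovered reads.

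The 10 genes and all lists were chosen with earlier results of these data known. Named besides them are up to 4 called genes per list and comparison with the largest change, of which the text gives a selection, and the 3 genes most alike to each member. Naming by size of change favours rows with wide errors, such as TNF, TNFRSF9, CSF3 and CXCR4. Levels per kilobase used exon lengths from GENCODE v29.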

Additional observations from a re-analysis of the deposited data

Results flagged for a closer look

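In 3 of 70 sets of 4 libraries, 1 library lay far from the others, which chance gives in about 1 set in 20. IL1A was low in Control replicate 3 at 334.2 counts, NFKBIA was low in B87+DMKG+Rita replicate 4 at 4444, and RELB was low in Rita replicate 4 at 326.5.

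The effect of DMKG differed between cells with and without B87, by the interaction term of the limma model, in 6 genes: IL1B (-2.74), IL1A (-2.34), CXCL8 (-2.04), RELB (-0.61), CXCL1 (-0.38) and NFKBIA (0.52), on the log2 scale. The effect of Nutlin-3 differed between cells with and without B87+DMKG for IL1B (3.88), IL1A (1.67), RELB (1.63), NFKBIA (0.67), CXCL1 (-0.40) and LIF (-1.10). That of Rita differed for IL1B (3.18), IL1A (2.95), CXCL8 (0.65), CXCL2 (0.31), NFKBIA (-0.33) and LIF (-0.50). The 3 terms share the B87+DMKG libraries, in which IL1A and IL1B were lowest.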

How the results depend on the processing

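Of 180 values (10 genes in 18 comparisons), 117 were called, and 95 of these kept the call under every alternative run, the fold limit aside. The other 22 lost it under at least 1, 23 of the 63 uncalled values gained a call, and 69 uncalled alternative values had another sign. The IL1A difference between DMKG and Control turned round to 0.69 without DMKG replicates 3 and 4. Leaving out 1 library gave 3 to 6 called genes for Nutlin-3 over Control, 4 to 6 for B87+DMKG+Rita over Rita and 4 to 8 for Nutlin-3 over Rita. With no filter, 4 were called for B87+DMKG+Rita over Rita, in a fit of only the compared groups 10 there, and with libraries scaled to 1 total 4 there and 3 for Nutlin-3 over Control. IL1B was not tested with a mean of at least 50. Replicate numbers did not pair the libraries (0 of 28 pairs of groups had every same-number correlation over 0.1), and the replicate block changed calls only for B87+DMKG+Rita over Rita, to 5 genes, without NFKBIA and TNFAIP3. The adjusted p of DESeq2 was missing in 2 rows of a comparison and in 2523 for B87 over Control, 0 of them members.

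With a log2 change of at least 1 required, called genes over Control numbered 2 in DMKG, 4 in B87+DMKG, 1 in Nutlin-3, 0 in Rita, 5 in B87+DMKG+Nutlin-3 and 4 in B87+DMKG+Rita. B87+DMKG then had 3 over DMKG and 3 over B87, B87+DMKG+Nutlin-3 had 3 over B87+DMKG and 5 over Nutlin-3, B87+DMKG+Rita had 2 over B87+DMKG and 2 over Rita, B87+DMKG+Nutlin-3 had 1 over B87+DMKG+Rita and Nutlin-3 had 0 over Rita. The combination beyond its parts had 3, the Nutlin-3 effect with against without B87+DMKG had 4 and the Rita effect had 2.

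The same total in every library moved the median of all rows by -0.11 for DMKG, -0.13 for Nutlin-3, -0.17 for Rita, -0.16 for B87+DMKG+Nutlin-3 and -0.25 for B87+DMKG+Rita over Control, by -0.14 and -0.24 for these last 2 over B87+DMKG, and by 0.12 for the combination beyond its parts. The share of called rows that were higher was then 31.7%, 30.5%, 30.8%, 33.8%, 27.8%, 31.8%, 32.6% and 61.3% in that order, beside 47.3%, 47.2%, 49.4%, 48.8%, 48.9%, 45.1%, 49.2% and 50.5% as reported, and 20.2% beside 39.9% for B87+DMKG+Rita over Rita. Quantile scaling gave 56.0% for B87+DMKG+Nutlin-3 over B87+DMKG (median moved by 0.14) and moved that of the Nutlin-3 difference of effects by 0.16. IL1B in B87+DMKG, at 2 to 8 reads, limits the size of its folds.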

Other observations

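Genes around LIF and the decay of cytokine messages are given here beside the share of all rows called, and where the total called is near that share it is no result about the list. In DMKG, where 41.4% of all rows were called, 9 of 19 further LIF and interleukin-6 family genes rose over Control and 3 fell (median log2 fold change 0.35, beside 0.03 over all rows), with the cytokine genes IL11 at 1.81 ± 0.58 and CLCF1 at 1.41 ± 0.09 and the kinase gene PIM1 at 0.89 ± 0.11. In B87+DMKG over DMKG, 2 of the 19 rose and 10 fell (median -0.29, beside 0.02 over all rows, of which 60.1% were called), among them the signal inhibitor SOCS1 at -2.57 ± 0.49 and the receptor gene LIFR at -1.42 ± 0.21. SOCS1 was higher by 3.08 ± 0.49 in B87+DMKG+Nutlin-3 and by 5.48 ± 0.49 in B87+DMKG+Rita than in B87+DMKG.

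ZFP36, whose product binds AU-rich ends and speeds decay, was higher than in Control by 1.46 ± 0.15 in DMKG and by 2.21 ± 0.15 in B87+DMKG. Its relatives ZFP36L1 and ZFP36L2 were lower in B87+DMKG+Nutlin-3 than in B87+DMKG+Rita (-2.60 ± 0.11 and -2.96 ± 0.10). Of 13 decay and stability genes, 0 rose and 8 fell in B87+DMKG+Nutlin-3 over B87+DMKG (median -0.30, beside -0.05 over all rows, of which 58.9% were called). In B87+DMKG+Rita over B87+DMKG, 4 rose and 5 fell (median -0.12, beside 0.00 over all rows, of which 67.3% were called). Of 21 upstream kinase and adaptor genes, 10 rose and 10 fell in B87+DMKG over Control (median -0.01, beside 0.00 over all rows, of which 61.0% were called), with the kinase gene TBK1 at -1.34 ± 0.14.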
